A study of Daphnia magna with 45 samples.

Results

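Daphnia magna exposed to propranolol at 4 mg/L for 1 h were compared with unexposed animals and with animals exposed to propranolol at 1 mg/L, all sampled at the same hour. The members are the 9 libraries that the labels place in these groups, of 45 libraries in the series: 3 of propranolol 4 mg/L, 3 of control and 3 of propranolol 1 mg/L. The last 2 groups together form the reference of 6 libraries. All animals were females of the strain Xinb3, 5 days old, held 20 to a solution of 35 mL, and RNA was taken from the whole body. The control solution held neither compound. At 1 h the series also has 3 libraries of isoprenaline at 100 mg/L and 3 of a mixture of propranolol at 1 mg/L with isoprenaline at 100 mg/L, and propranolol 4 mg/L was sampled again at 6 h (2 libraries) and 24 h (3 libraries). The comparison addresses the earliest sampled response to the higher dose of the compound.

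Propranolol blocks beta-adrenergic receptors, the receptors through which adrenaline and noradrenaline speed the vertebrate heart, and isoprenaline activates them. Arthropods largely use octopamine and tyramine in place of these amines, acting on related receptors that couple to G proteins and, for some of them, to cyclic AMP. Daphnia are transparent freshwater crustaceans with a single heart, in which such drugs are used to study the heart beat. The transcripts carry assembly IDs, and none of the 19159 IDs matched the 28335 genes of the reference table. No gene name, role, tissue marker or sequence is therefore given for any ID, and the labelled tissue could not be checked against markers.

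Levels are CPM, the share of a library's reads that an ID took, and differences are those of log2(CPM + 1). The added 1 shrinks the differences of IDs with few reads. The 9 libraries held 13.6 to 20.2 M reads, with 13 to 89 IDs at 0 in a library, and 3 reads stood for 0.149 to 0.22 CPM. Some libraries stood apart within their groups. Replicate 2 of propranolol 4 mg/L had a Pearson r across IDs of 0.847 to 0.885 with the control libraries at 1 h. Replicates 2 and 3 of propranolol 1 mg/L had r of 0.844 to 0.891 and of 0.911 to 0.945. Replicate 2 of isoprenaline had r of 0.83 to 0.874. These 4 libraries correlated at 0.952 to 0.969 among themselves, and the other 1 h libraries had r of 0.964 to 0.988 with control. Counts of calls and the values of the named IDs are given with and without these libraries, while the counts of non-overlapping IDs and of IDs by level are given with all libraries. The part of whatever they share in the results was not tested. The median SD of an ID within a group was 0.174 on the log2 scale for control, 0.348 for propranolol 1 mg/L and 0.281 for propranolol 4 mg/L.

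**Figure D1:**
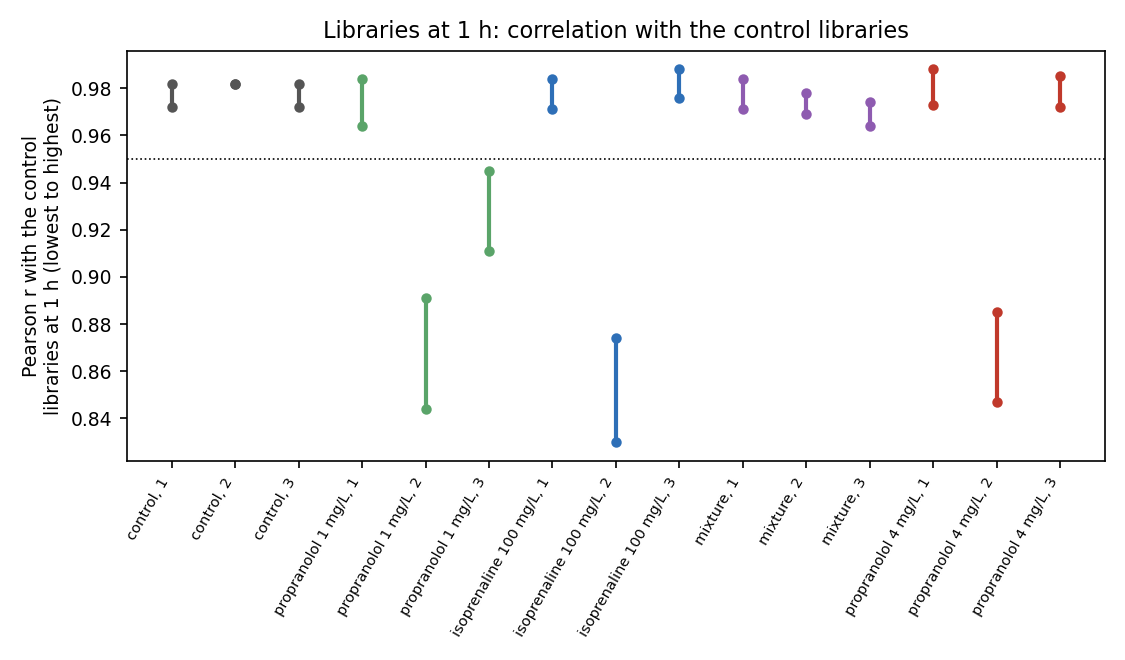
Pearson correlation across IDs of each 1 h library with the control libraries of the same hour, on log2(CPM + 1). Each bar runs from the lowest to the highest r, and the dotted line at 0.95 separates the 4 libraries that stood apart, of which 1 is propranolol 4 mg/L and 2 are propranolol 1 mg/L.

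After 1 h at 4 mg/L, 5 IDs (0.0261%) were higher and 3 (0.0157%) lower than in the 6 reference libraries at an adjusted p under 0.05 (limma, Benjamini-Hochberg over 19159 IDs). The 8 calls are 0.0418% of the IDs tested. Their changes ran from 0.73 to 2.68 on the log2 scale for the higher IDs and from -0.76 to -4.77 for the lower ones. Without the libraries that stood apart, limma called 0 IDs, with 243 at an unadjusted p under 0.05 against 683 with all libraries. edgeR's quasi-likelihood test on whole reads called 16 IDs (0.0835%), 8 higher and 8 lower, and these held all 8. The count also depended on single libraries: it was 0 without replicate 3 of propranolol 4 mg/L, 1 without its replicate 2, 2 without control replicate 2 or propranolol 1 mg/L replicate 2, and 5 without control replicate 3. A p-value here reflects the spread within all 16 groups of the 45 libraries fitted, not that of the 9 libraries alone. Nothing in the labels says that replicates came from separate cultures, so that spread may be technical.

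Dapma7bEVm028381t1 had the largest rise among the called IDs. Its level was 19.6, 74.9 and 29.6 CPM in the 3 libraries of propranolol 4 mg/L, against 1.76, 4.36 and 5.61 CPM in control and 5.08, 6.72 and 6.26 CPM in propranolol 1 mg/L. Every exposed library lay above every reference library, and replicate 2 of the exposed group, a library that stood apart, was the highest. The means were 41.3 ± 29.5 (SD, n = 3), 3.91 ± 1.97 (SD, n = 3) and 6.02 ± 0.846 CPM (SD, n = 3). The rise was 2.68 on the log2 scale (SE 0.463, adjusted p = 0.0208, limma). It lost its call when only the 1 h groups compared were fitted (adjusted p = 0.603, limma) or the reference was taken as 1 group (adjusted p = 0.519, limma). It also lost it without replicate 2 (adjusted p = 0.433, limma) or replicate 3 of propranolol 4 mg/L (adjusted p = 0.133, limma).

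Dapma7bEVm020238t1 was the other large riser, with 19.6, 15.7 and 24.4 CPM at 4 mg/L. It stood at 2.59, 2.77 and 3.18 CPM in control and at 3.6, 2.69 and 2.98 CPM in propranolol 1 mg/L. The reference libraries were close together, and every exposed library lay well above the highest of them. It rose by 2.38 on the log2 scale (SE 0.431, adjusted p = 0.0212, limma). The call was lost without control replicate 2, propranolol 1 mg/L replicate 2 or any of the exposed libraries, with adjusted p of 0.0611 to 0.359 (limma).

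Dapma7bEVm016578t1 fell the most of the called IDs, almost to the limit of detection. The 3 exposed libraries held 1, 4 and 2 reads of it, or 0.0495, 0.209 and 0.147 CPM. Control held 8.8, 55 and 4.17 CPM and propranolol 1 mg/L held 27.6, 162 and 64.4 CPM. No exposed library reached even the floor of the reference range, while the reference libraries themselves were far apart. Taken over all reads of each side, the level was 416-fold lower, with an exact 95% counting interval of 202 to 1030 from 7 against 5926 reads, which covers counting error only. It was 238-fold without replicate 2 of propranolol 1 mg/L, which held the most of the ID among the 9 libraries, and 270-fold without all the libraries that stood apart. The fall was -4.77 on the log2 scale (SE 0.865, adjusted p = 0.0212, limma). The call was lost with only the groups compared (adjusted p = 0.654, limma) and with the reference as 1 group (adjusted p = 0.859, limma). It was also lost without the same 5 libraries, each left out alone, with adjusted p of 0.0611 to 0.344 (limma).

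Dapma7bEVm018343t1 showed the same arrangement at lower levels. It had 1.04, 0.418 and 0.367 CPM at 4 mg/L, against 4.29, 11.8 and 5.38 CPM in control and 5.72, 21.5 and 18.4 CPM in propranolol 1 mg/L. The groups did not overlap. The 34 exposed reads against 1206 reference reads gave a level 17.4-fold lower, with an exact 95% counting interval of 12.4 to 25.3. It was 28.2-fold without replicate 1 of propranolol 4 mg/L and 8.81-fold without the libraries that stood apart. On the log2 scale it fell by 2.72 (SE 0.534, adjusted p = 0.0424, limma). The call was lost with only the groups compared (adjusted p = 0.603, limma) and with the reference as 1 group (adjusted p = 0.549, limma). Among the fits without a library it held only when the one left out was replicate 1 of control or of propranolol 1 mg/L, and the other fits gave adjusted p of 0.0611 to 0.498 (limma).

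These 4 IDs were chosen for groups that do not overlap, which fixes the exact two-sided permutation p over the 9 libraries at 0.0238, the smallest that 84 regroupings allow, so that p is no support. The choice likewise fixes the sign of the difference in any subset of the libraries, but not its size. Dapma7bEVm016578t1 was lower by -6.42 on the log2 scale among the libraries that stood apart (1 against 2) and by -3.94 among the others (2 against 4). Dapma7bEVm018343t1 gave -3.88 and -2.14, Dapma7bEVm028381t1 gave 3.34 and 2.34, and Dapma7bEVm020238t1 gave 2.12 and 2.51. With so few libraries on each side these within-split values carry no test, and without the libraries that stood apart the adjusted p was 1 for each of the 4 IDs (limma).

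The remaining 4 called IDs included the one with the lowest adjusted p of all. It had 48.4, 38.3 and 51.6 CPM at 4 mg/L, against 6.44, 7.92 and 9.55 CPM in control and 8.26, 9.61 and 9.42 CPM in propranolol 1 mg/L. Its rise of 2.31 on the log2 scale (SE 0.331, adjusted p = 0.00144, limma) was somewhat smaller than those of the named risers, with the smallest SE of the 3. Another ID rose from a reference range of 1.54 to 4.19 CPM to 7.58 to 12.1 CPM, and a further one from 6.93 to 10.5 CPM to 13.3 to 19.6 CPM. The last, a lower ID, had 0.587 to 1.14 CPM against 1.43 to 2.84 CPM. Neither the 3 higher IDs nor the lower one overlapped the reference libraries. In the order given, their calls held in 8, 1, 5 and 4 of the 9 fits that left out a single library (limma). Among these 4 IDs, only the one with the lowest adjusted p kept its call with only the groups compared or the reference as 1 group. Of the named IDs, Dapma7bEVm020238t1 kept its call in both settings (adjusted p = 0.00472 and 0.000933, limma).

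**Figure D2:**
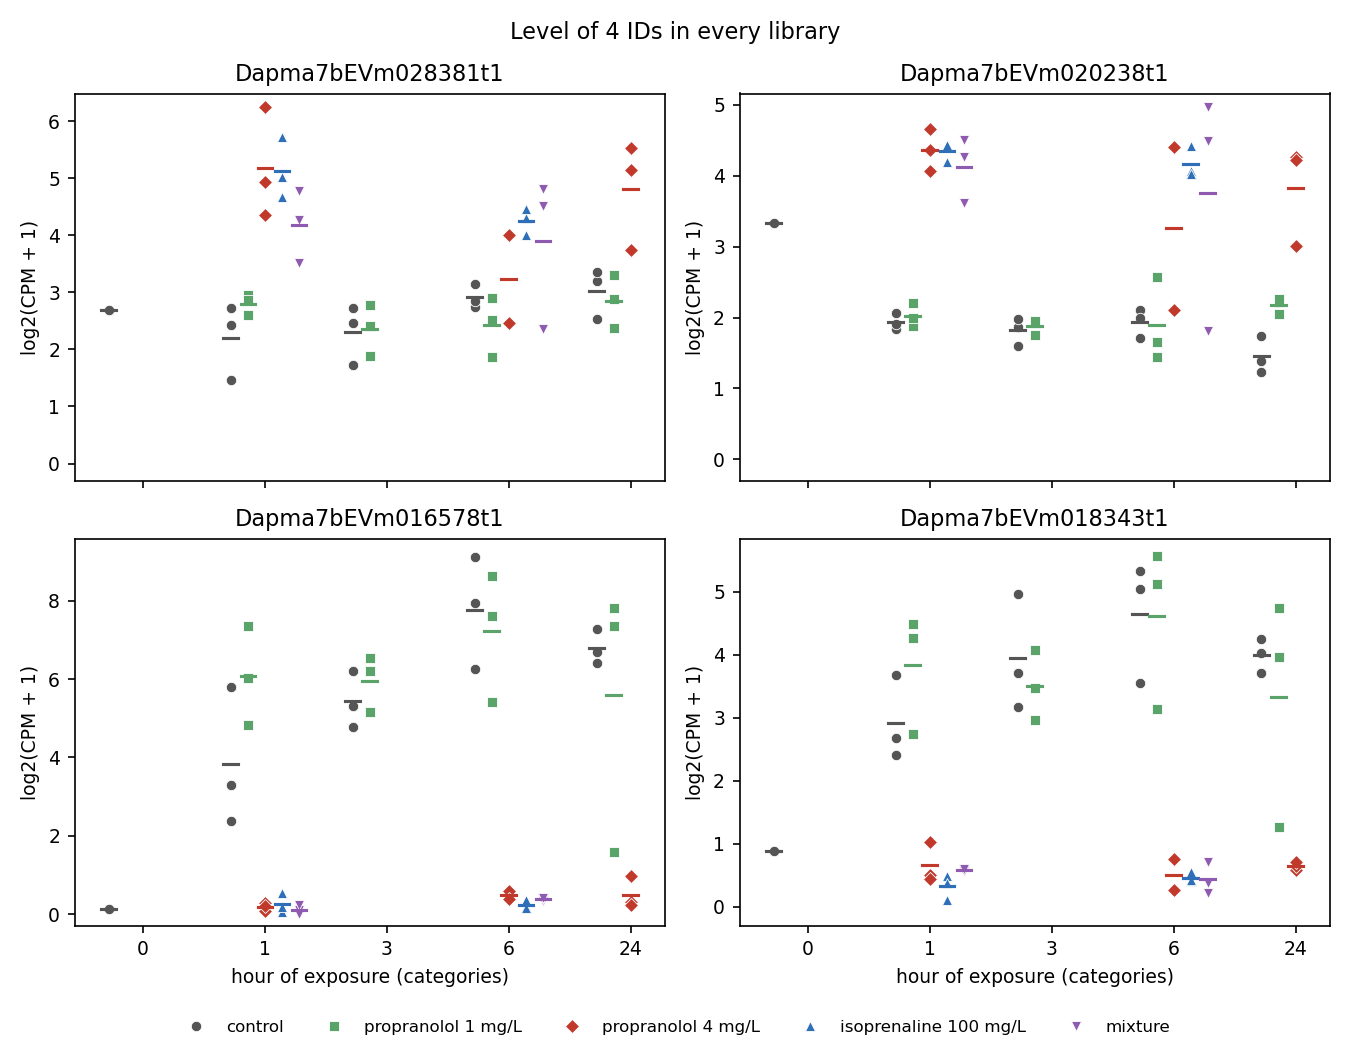
Level of the 4 named IDs in every library, as log2(CPM + 1), by hour (evenly spaced categories) and exposure; points are libraries and dashes group means. At 1 h the propranolol 4 mg/L libraries (red diamonds) lie above all control and propranolol 1 mg/L libraries for the upper pair of IDs and below them for the lower pair, next to isoprenaline and the mixture.

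The calls stood against a wide spread between libraries. Over all 19159 IDs the median difference was 0.0232 on the log2 scale, and the median 95% interval of an ID reached 0.493 to either side. The differences ranged from -5.53 to 2.68, and 139 IDs differed by more than 2-fold. The 3 exposed libraries lay wholly outside the range of the 6 reference libraries for 460 IDs, or 2.4% of those tested. That share is about the smallest p the exact permutation over 9 libraries can give, 0.0238, so the count is a description and not a result about the exposure. Of these, 221 IDs (1.15%) lay above, with a median difference of 0.378, and 239 (1.25%) lay below, with a median of -0.457. More than 2-fold were 14 of the higher and 40 of the lower of these IDs, and over all IDs 22 were higher and 117 lower by more than 2-fold, most of them short of the adjusted test. The ID with the lowest value, -5.53, was among those lying below but did not pass the adjusted test.

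By level, 5 of the 8 calls fell among the 5650 IDs with a mean of 5 to 20 CPM, 2 among the 5888 IDs with 20 to 100 CPM and 1 among the 4016 IDs with 1 to 5 CPM. None of the 1671 IDs over 100 CPM was called, with 61 of them at an unadjusted p under 0.05, and none of the 1934 IDs under 1 CPM, with 73. The share of IDs at an unadjusted p under 0.05 was similar in every class of level, from 2.92% to 4.11%. In each class it was below the 0.05 that the threshold passes without any effect. edgeR's calls were not divided by level.

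**Figure D3:**
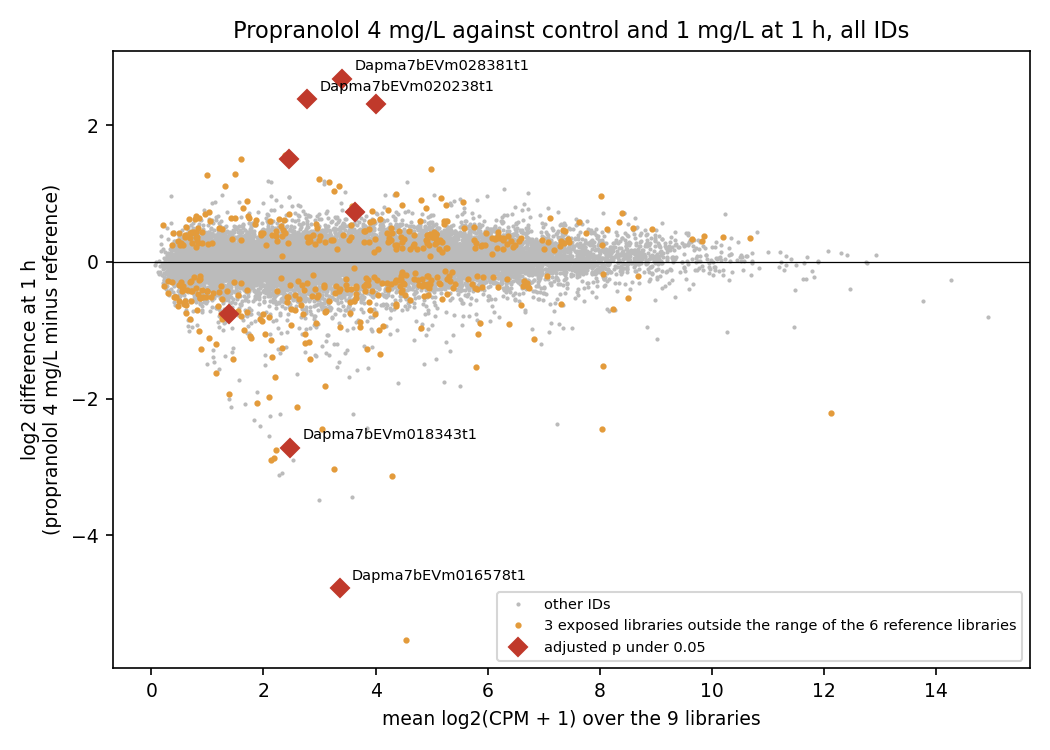
Difference between propranolol 4 mg/L and the reference at 1 h against the mean level over the 9 libraries, for all 19159 IDs, both on the log2(CPM + 1) scale. Red diamonds are the 8 IDs with an adjusted p under 0.05 and orange points the further IDs whose 3 exposed libraries lie outside the range of the 6 reference libraries; the downward differences reach farther than the upward ones.

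The pooled reference joins unexposed animals with animals at the lower dose, and each was also taken alone. Against control, 2 IDs were called (0.0104%), both higher. They were Dapma7bEVm028381t1, which rose by 2.98 on the log2 scale (adjusted p = 0.0385, limma), and the ID with the lowest adjusted p in the pooled comparison, which rose by 2.4 (adjusted p = 0.0102, limma). edgeR called 1 ID. The count was 0 without control replicate 1, control replicate 2 or replicate 3 of propranolol 4 mg/L, and 1 when any of the other 3 libraries was left out.

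Against propranolol 1 mg/L, 4 IDs were called (0.0209%), 2 higher and 2 lower, and edgeR called 9. Dapma7bEVm016578t1 was among the lower ones, with a difference of -5.89 on the log2 scale (adjusted p = 0.0134, limma). Dapma7bEVm018343t1 just missed the threshold here, at -3.18 (adjusted p = 0.0509, limma). The count was 0 without replicate 2 or 3 of propranolol 1 mg/L or of propranolol 4 mg/L. Against control alone, Dapma7bEVm016578t1 differed by -3.64 (adjusted p = 0.972, limma) and Dapma7bEVm018343t1 by -2.26 (adjusted p = 0.972, limma), although every exposed library was below every control library. For these lower IDs the estimate was larger against the lower dose than against control.

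The reference groups themselves were not told apart at this depth of replication. Between propranolol 1 mg/L and control at 1 h limma called 0 IDs, with 64 at an unadjusted p under 0.05, and edgeR called 0, with 123. Their difference for Dapma7bEVm016578t1 was 2.25 on the log2 scale, with a 95% interval of 0.21 to 4.29 and an adjusted p of 0.999 (limma). It was higher at 1 mg/L and so opposite in sign to the value at 4 mg/L. That rested on the libraries that stood apart, with 162 and 64.4 CPM. The remaining library at 1 mg/L had 27.6 CPM, within the control range of 4.17 to 55 CPM. For Dapma7bEVm018343t1 the difference was 0.92, with an interval of -0.34 to 2.17. For Dapma7bEVm028381t1 and Dapma7bEVm020238t1 it was 0.6 (-0.49 to 1.69) and 0.08 (-0.93 to 1.1). Intervals of this width do not show that the lower dose left these IDs as they were.

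Isoprenaline and the mixture at 1 h had levels of the named IDs near those of propranolol 4 mg/L. Dapma7bEVm028381t1 stood at 31.5, 51.5 and 24.4 CPM with isoprenaline and at 10.4, 26.4 and 18.3 CPM with the mixture. Dapma7bEVm020238t1 had 20.3, 17.3 and 20.6 CPM and 11.3, 18.2 and 21.6 CPM. Every one of these 6 libraries was above all 6 reference libraries for both IDs. Dapma7bEVm016578t1 was at 0.0454, 0.445 and 0.129 CPM with isoprenaline and at 0.0682, 0.171 and 0 CPM with the mixture. Dapma7bEVm018343t1 was at 0.408, 0.0741 and 0.301 CPM and at 0.478, 0.489 and 0.521 CPM. All of these were below the reference range. The named IDs had been chosen on these same 6 reference libraries, which favours separation from other groups too. The share of all IDs that separate in this way was not counted, so these positions are a description only.

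Direct contrasts, chosen after the data had been seen, gave 0 calls between propranolol 4 mg/L and isoprenaline at 1 h, with 40 IDs at an unadjusted p under 0.05 (limma). edgeR gave 0 calls and 64 such IDs. Against the mixture limma gave 0 calls and 433 such IDs, and edgeR 0 and 539. The difference from isoprenaline was 0.05 for Dapma7bEVm028381t1, with a 95% interval of -1.04 to 1.14, and -0.08 for Dapma7bEVm016578t1, with -2.11 to 1.96. From the mixture it was 0.99 for Dapma7bEVm028381t1, with -0.1 to 2.08, and 0.07 for Dapma7bEVm016578t1, with -1.97 to 2.11. The intervals leave room for differences of 2-fold and more, and doses of propranolol and isoprenaline were not matched.

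The same contrast was measured again at 6 h and 24 h in other libraries. All 5 IDs higher at 1 h had positive differences at 6 h and all 3 lower IDs negative ones, of which 1 and 3 passed. At 24 h the signs were again the same, and 5 of the 5 higher and 2 of the 3 lower IDs passed (limma). None of the calls at 24 h held with only the groups compared or with the reference as 1 group. Over all IDs, 1094 (5.71%) were called at 6 h and 211 (1.1%) at 24 h. The count at 6 h was 8 without replicate 1 of propranolol 4 mg/L and 1977 without replicate 2. The count at 24 h was 6 without replicate 1 of propranolol 4 mg/L, 79 without replicate 1 of propranolol 1 mg/L, 106 without control replicate 1 and 134 without propranolol 1 mg/L replicate 3. It was 497 and 564 without replicate 3 of propranolol 4 mg/L and replicate 2 of propranolol 1 mg/L.

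Dapma7bEVm016578t1 stayed near the limit of detection in the exposed animals. Its difference was -7.00 on the log2 scale at 6 h (SE 0.999, adjusted p = 0.000171, limma) and -5.69 at 24 h (SE 0.865, adjusted p = 0.000641, limma). The exposed libraries stayed at 0.314 to 0.514 CPM at 6 h and 0.17 to 0.945 CPM at 24 h, while control held 75 to 558 and 84.2 to 154 CPM. Propranolol 1 mg/L held 41.7 to 398 CPM at 6 h and 1.98 to 226 CPM at 24 h, so its lowest 24 h library was close to the exposed ones. Dapma7bEVm018343t1 likewise gave -4.11 (adjusted p = 0.000299) and -3.01 (adjusted p = 0.00414, limma). Exposed libraries had 0.206 to 0.69 CPM of it at 6 h and 0.498 to 0.638 CPM at 24 h. Control had 10.7 to 39 and 12 to 18.1 CPM, and propranolol 1 mg/L 7.81 to 46.5 and 1.41 to 25.8 CPM. The 6 h calls of Dapma7bEVm016578t1 and Dapma7bEVm018343t1 each held in 6 of 8 alternative settings other than leaving out single libraries. The highest adjusted p among these settings was 0.186 and 0.199 (limma).

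The risers were less even at 6 h. Dapma7bEVm028381t1 had 4.52 and 15.1 CPM in the 2 exposed libraries of that hour, with a difference of 0.57 (adjusted p = 0.656, limma), which became -0.2 without replicate 1. Dapma7bEVm020238t1 had 3.33 and 20.2 CPM and a difference of 1.34 (adjusted p = 0.11, limma). In each case 1 of the 2 libraries lay within the reference range. At 24 h both IDs passed, with 12.5 to 45 CPM and a difference of 1.87 (adjusted p = 0.036) for Dapma7bEVm028381t1 and 7.02 to 18.3 CPM and 2.02 (adjusted p = 0.0135, limma) for Dapma7bEVm020238t1. The 24 h calls of Dapma7bEVm028381t1 and Dapma7bEVm020238t1 held in 4 and 7 of the 9 fits that left out a single library. Neither held with only the groups compared or with the reference as 1 group. The differences between hours did not pass for any of the 8 called IDs.

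**Figure D4:**
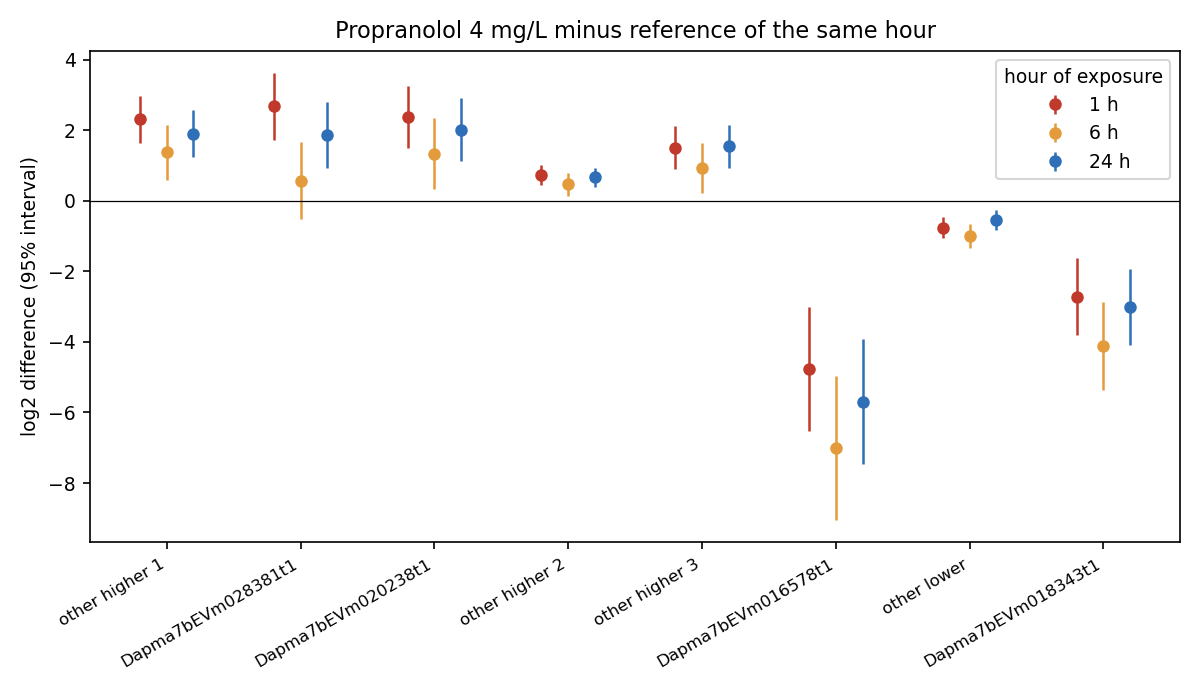
Difference between propranolol 4 mg/L and the reference of the same hour for the 8 IDs called at 1 h, on the log2(CPM + 1) scale, with 95% intervals from the limma fit. Values at 1, 6 and 24 h stay on the same side of 0 for each ID, and at 6 h the interval of Dapma7bEVm028381t1 reaches below 0.

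From 1 to 24 h, 3 of the 8 called IDs separated the exposures without overlap and 5 did not. The libraries of the 1 h contrast, by which these IDs were chosen, are within both sides. The share of all IDs that separate in this way was not counted, so the count is a description only. In the 24 libraries of control and propranolol 1 mg/L from 1 to 24 h, Dapma7bEVm016578t1 ran from 1.98 to 558 CPM, and in the 20 libraries of propranolol 4 mg/L, isoprenaline and the mixture from 0 to 0.945 CPM. Dapma7bEVm018343t1 ran from 1.41 to 46.5 CPM and from 0.0741 to 1.04 CPM. The riser with the lowest adjusted p also did not overlap, at 6.44 to 11.6 against 12 to 61.9 CPM. The control library of 0 h was left out of these ranges. It lay within the exposed range for all 3 IDs, at 0.1, 0.85 and 27.7 CPM. Dapma7bEVm028381t1 and Dapma7bEVm020238t1 did overlap, at 1.76 to 9.29 against 4.12 to 74.9 CPM and at 1.35 to 4.96 against 2.5 to 30.4 CPM. So did the remaining lower ID, at 0.886 to 3.35 against 0.578 to 1.16 CPM, and the other 2 risers, at 6.65 to 13.6 against 11.5 to 19.6 CPM and at 0.916 to 4.49 against 4.2 to 16.7 CPM.

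The single control library at 0 h lay nearer to the exposed than to the control libraries of 1 h for several of these IDs. It held 0.1 CPM of Dapma7bEVm016578t1, from 2 reads, and 0.85 CPM of Dapma7bEVm018343t1, both below every control library at 1 h. The riser with the lowest adjusted p had 27.7 CPM in it, and the remaining 2 unnamed risers 39.5 and 27.3 CPM, all above the control range at 1 h. The remaining lower ID had 1.95 CPM, within the control range of 1.43 to 2.03 CPM and above the exposed libraries. Dapma7bEVm020238t1 had 9.1 CPM, between the reference and exposed ranges of 1 h, and Dapma7bEVm028381t1 had 5.45 CPM, within the control range. With 1 library at 0 h there is no replicate check.

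Beyond the called IDs, the 683 IDs at an unadjusted p under 0.05 at 1 h (3.56% of those tested) were followed into the later libraries. That share is below the 0.05 that the threshold passes without any effect. The size of the set is therefore a description and not a result about the exposure. Of the 367 lower IDs, 100% were lower at 6 h as well, with a median of -1.14 on the log2 scale. Of them 249 were called lower, or 67.8% against 5.49% of all IDs (limma). With median log-ratio scaling 184 were called lower, against 554 of all IDs, and with edgeR 159, against 417. Most calls at 6 h were lost with only the groups compared or without replicate 1 of propranolol 4 mg/L. At 24 h, 96.5% of the 367 IDs were lower, with a median of -0.633, and 77 were called lower, or 21% against 0.72%. Over all IDs 59.7% were lower at 6 h, with a median of -0.0996, and 48.6% at 24 h, with a median of 0.0106. The later libraries did not enter the difference at 1 h, but all libraries shared the fit whose spread set the p-values by which the IDs were chosen.

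Of the 316 higher IDs, 82% were higher at 6 h, with a median of 0.285, and 27 (8.54%, against 0.219% of all IDs) were called higher. At 24 h, 92.7% were higher, with a median of 0.359, and 23 (7.28%, against 0.381%) were called higher. Over all IDs 40.3% were higher at 6 h and 51.4% at 24 h. Scaling by the median log ratio raised the share of the higher IDs above 0 at 6 h to 90.8% and left 98.9% of the lower ones below 0. When the first replicate of propranolol 4 mg/L at 6 h was left out, 98.9% of the lower and 74.4% of the higher IDs kept their side. Their medians were then -0.854 and 0.285, and over all IDs 56.1% were lower and 43.9% higher. That fit rests on a single exposed library. At 24 h without replicate 1 of the exposed group, 3 of the lower IDs were called lower and 1 of the higher ones higher. Over all IDs the calls were then 4 lower and 2 higher. Without replicate 2 of that group, 39 of the lower IDs were called lower and 1 higher, and 31 of the higher ones higher. Over all IDs 85 were then called lower and 150 higher.

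Part of these IDs was chosen on libraries that stood apart. With those libraries left out, 150 lower and 93 higher IDs had an unadjusted p under 0.05 at 1 h. At 6 h 96.7% of these lower IDs were lower and 80.6% of the higher ones higher, and at 24 h 86% and 90.3%. In whole-body RNA, fewer cells of a type and less RNA per cell cannot be told apart, for the lower IDs as for the higher ones.

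**Figure D5:**
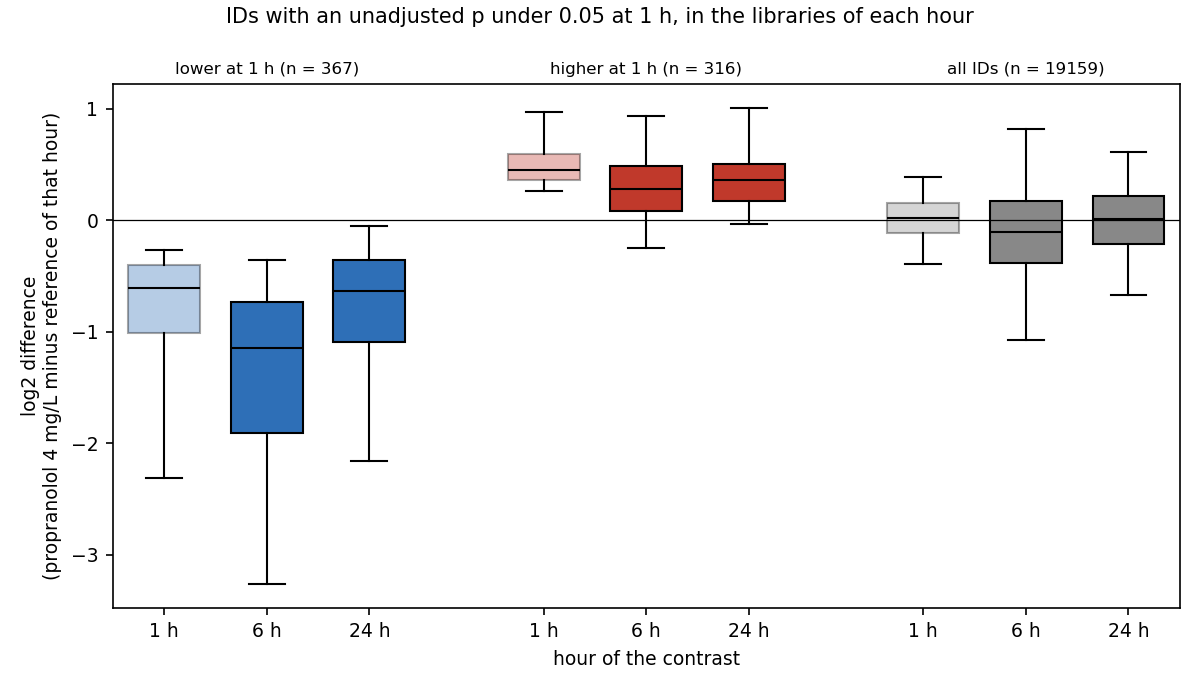
Differences between propranolol 4 mg/L and the reference at 1, 6 and 24 h for the 367 lower and 316 higher IDs with an unadjusted p under 0.05 at 1 h, beside all 19159 IDs, on the log2(CPM + 1) scale. Boxes span the quartiles with the median as a line, whiskers the 5th to 95th percentiles, and the pale boxes show the hour that chose the IDs; the lower IDs have medians of -1.14 at 6 h and -0.633 at 24 h.

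The size of the effect was compared between hours in the same fit. Between 6 h and 1 h limma called 1 ID (0.00522%), with 1077 at an unadjusted p under 0.05, and edgeR called 0, with 701. That ID had not differed at 1 h, with 16.4 to 20.2 CPM at 4 mg/L against 14.7 to 21.2 CPM in the reference, and stood at 3.5 to 6.09 against 15.1 to 19.8 CPM at 6 h. Between 24 h and 1 h limma called 1 ID, with 398 at an unadjusted p under 0.05, and edgeR called 0, with 694. It had 4.9 to 7.06 against 2.26 to 5.08 CPM at 1 h, and 3.63 to 19.8 against 15.5 to 341 CPM at 24 h. The difference in effect between 6 h and 1 h was thus tested for every ID and passed for 1. For the other IDs, the larger number of calls at 6 h than at 1 h does not itself show a changed effect.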

How the data were processed

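RNA of whole animals was sequenced from stranded mRNA libraries made from 500 ng of total RNA, per the labels' protocols. The authors deposited CPM values for 19159 IDs in 45 libraries. Trim Galore 0.3.2, Bowtie2 2.1.0, edgeR and HTSeq appear in the submitters' processing notes, without their roles. Which genome build was used is not given in the sources used here. Every one of the 862155 values (100%) was a whole number of reads within 0.01 read, so reads were recovered for edgeR. Those totals give the depths and the 3-read floors, which cover counting error only.

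Groups were read from the sample titles. limma 3.58.1 in R 4.3.3, with its trend and robust options, was fitted to log2(CPM + 1), pseudocount 1, with 16 group means over 45 libraries and 29 residual degrees of freedom, and p-values were adjusted by Benjamini-Hochberg over all IDs. The planned filter, 1 CPM in at least 3 libraries, removed no ID. Pairs of libraries in the 1 h groups differed by more than sampling noise, with 28.3 to 348 as the chi-square per degree of freedom, and each was counted as a replicate.

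The naming rule took the called IDs with the largest differences, 2 higher and 2 lower, with a mean of at least 5 CPM and no overlap between groups; other called IDs are described without a name. The gene lists that had been drawn up were void, since 0 IDs matched the reference. The contrast, the lists and the alternatives were chosen with earlier results of these data known. Alternatives were a pseudocount of 0.25, other filters, only the groups compared, the reference as 1 group, replicate block, median log-ratio scaling, edgeR 4.0.16, 1 surrogate variable (sva 3.50.0) and leaving out each library. Added after seeing the data were fits without the libraries that stood apart, contrasts with isoprenaline and the mixture, read ratios without single libraries, and the later course of the 1 h IDs. Only for propranolol 1 mg/L against control at 1 h did same-numbered libraries deviate together in every pair (r of 0.529, 0.22 and 0.289), and the replicate block gave 0 calls there, as without it. Scripts were tested on simulated data.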

Additional observations from a re-analysis of the deposited data

Results flagged for a closer look

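The effect of propranolol 4 mg/L against the reference differed between hours for 1 ID between 6 h and 1 h and for 1 ID between 24 h and 1 h (limma, difference of the contrasts). The log2 differences were -1.81 (SE 0.297, adjusted p = 0.018) and -3.75 (SE 0.649, adjusted p = 0.0426, limma). edgeR gave adjusted p of 0.093 and 0.132 for them.

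Among the 6 reference libraries at 1 h, Dapma7bEVm028381t1 had a lowest value far from the others, 1.76 CPM in control replicate 1. On the log2(CPM + 1) scale the gap to the next library was 0.645 of the whole range, above Dixon's 95% limit for 6 values. Chance gives such a gap in about 1 of 20 groups. Without that library the rise at 4 mg/L was 2.49 on the log2 scale (adjusted p = 0.0465, limma).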

How the results depend on the processing

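Settings that moved a count of called IDs by over 1.5 times are given here. For propranolol 4 mg/L against the pooled reference at 1 h (8 calls), fitting only the groups compared gave 2, the reference as 1 group 2, edgeR 16 and leaving out the libraries that stood apart 0. Against control (2), these were 0 with only the groups compared, 1 with the replicate block, 1 with median log-ratio scaling, 1 with edgeR, 4 with 1 surrogate variable and 0 without the libraries that stood apart. Against propranolol 1 mg/L (4), they were 9 with a pseudocount of 0.25, 1 with only the groups compared, 9 with edgeR and 0 without the libraries that stood apart. At 6 h (1094), they were 1 with only the groups compared, 705 with scaling, 655 with edgeR and 4 with the reference as 1 group. At 24 h (211), they were 0, 572 with edgeR and 0 with the reference as 1 group. The difference of 6 h from 1 h (1) gave 0 with only the groups compared, scaling, edgeR or without the libraries that stood apart, and that of 24 h from 1 h (1) gave 0 under the same settings and with a pseudocount of 0.25. Against isoprenaline (0), only the groups compared gave 1. The cause was not tested.

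Leaving out each library gave 0 to 12 calls in the pooled comparison at 1 h, 0 to 1 against control, 0 to 5 against propranolol 1 mg/L, 8 to 1977 at 6 h, 6 to 564 at 24 h, 0 to 76 for 6 h against 1 h and 0 to 1 for 24 h against 1 h. The 6 h difference of Dapma7bEVm028381t1 ran from -0.2 without replicate 1 of propranolol 4 mg/L (adjusted p = 0.954, limma) to 1.34 without its replicate 2, against 0.57 with both. Of the values of called IDs under alternatives, 284 kept direction and call and 138 lost the call. Of values that had no call, 212 stayed so in the same direction, 16 gained a call and 1 reversed.

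Same-numbered libraries of propranolol 4 mg/L did not deviate together in every pair, with r of 0.462, 0.284 and -0.324 against control and 0.769, 0.765 and -0.305 against propranolol 1 mg/L. With the replicate block the pooled comparison at 1 h gave 11 calls, that against propranolol 1 mg/L 6, and 6 h and 24 h gave 1174 and 286. The share of lower IDs among the calls was 37.5% at 1 h, 60% with a pseudocount of 0.25 and 50% with edgeR. At 6 h it was 96.2%, 78.6% with scaling and 63.7% with edgeR, and at 24 h 65.4% and 35.1% with edgeR. Scaling moved the median of all IDs at 6 h from -0.0996 to 0.0554. At 3 libraries a group and 13.6 to 20.2 M reads, the median 95% interval reached 0.493 to either side for the pooled comparison and 0.57 for 3 against 3.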
